A study of Rattus norvegicus with 18 samples.

Results

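The step from CT 12 to CT 18 in the suprachiasmatic nucleus (SCN) was read as the difference between arrays titled 18 or 42 h (CT 18) and arrays titled 12 or 36 h (CT 12), which are 9 of the 18 arrays of the series. Circadian time (CT) 12 is the projected onset of night, when a nocturnal rat becomes active, and CT 18 lies 6 h later. The RNA came from the SCN of adult male Long-Evans rats with no transgene or drug. The animals were housed in 12 h of light and 12 h of darkness and then kept in constant darkness from a usual lights-off. A time point is 1 pool of RNA from 5 rats, extracted rat by rat, so each phase has 2 pools, and p-values below measure the spread between pools. The pools of 12 h and 18 h fell on the first sampled day and those of 36 h and 42 h on the second, counted from a start at CT 0 that followed 12 h of darkness. All 4 pools shared the constant darkness, so the comparison is between 2 clock phases and holds no light-exposed group.

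The SCN is the hypothalamic cell group that sets daily rhythms of behaviour and hormones. In its cells the factors CLOCK and BMAL1 switch on the Per, Cry, Nr1d1 and Dbp genes through sites called E-boxes, and the PER and CRY proteins later shut that drive off. The nuclear receptors REV-ERB alpha and beta (Nr1d1 and Nr1d2) repress Bmal1, so in the rodent SCN Bmal1 RNA is known to run opposite to Per and Dbp RNA. Most SCN neurons use GABA, with arginine vasopressin (Avp) and vasoactive intestinal peptide (Vip) as peptides of its shell and core.

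The rat U34A GeneChip was used, a 1-colour array that reads a gene by 1 or more sets of short probes, and the values are intensities on a linear scale. A first run held 5 of the 9 arrays, with arrays a and b at 36 h, and a technical repeat held the other 4, 1 per pool. Arrays a and b were taken to share a pool, which the labels do not state. A pool value is the mean of both runs on the log2 scale. Median intensities of these arrays were 142.8 to 152.2 in the first run and 115.1 to 127.6 in the repeat. The spike-in hybridisation controls averaged 4801 on the 12 h array of the first run, 4968 on its 18 h array and 6370 on array b of 36 h, against 1118 to 2417 on the other 15 arrays of the series. All 3 of these arrays belong to CT 12 or CT 18, and results are also given without them. SCN identity could be checked only in part. Avp read 2204 and 1873 at CT 12 and 1993 and 1826 at CT 18, whereas Vip was dim, at 30.8 and 46.1 against 37.8 and 64.2, and fell under the level at which probe sets were tested. Gad1, which makes GABA, read 10654 and 14705 at CT 12 and 7952 and 9034 at CT 18.

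Across the array, no gene changed between CT 12 and CT 18 past an adjusted threshold. The genes with the smallest p were Rasl11b, Rsad2 and Kcnd3 among those lower at CT 18, and Cdk5, Renbp, Skic8 and Csad among those higher. Of the clock genes, Dbp and Bhlhe41 were lower and Bmal1 was higher at CT 18, each at an unadjusted p under 0.05 only.

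In detail, 4370 probe sets had a mean level above 121 and were tested with limma. At an adjusted p under 0.05, 0 were called (0%), and the lowest adjusted p was 0.199. At an unadjusted p under 0.05 there were 442 (10.1%), of which 239 were higher at CT 18 (5.47%) and 203 lower (4.65%); 218.5 would pass by chance at that threshold. Without the 3 arrays of high controls the number was 283. Pools of CT 12 and CT 18 did not overlap for 1761 probe sets (40.3%), with CT 18 higher in 20.5% and lower in 19.8%. Differences of any size were positive in 50.7% and negative in 49.3%. The difference had the same sign in both runs on both days for 680 (15.6%), positive in 7.87% and negative in 7.69%. Of these, 225 also had an unadjusted p under 0.05 (5.15% of those tested), 2.75% higher and 2.4% lower. A permutation of 2 pools against 2 that ignores the days has 6 arrangements and cannot give a two-sided exact p below 0.333. Kept within days, as the fit pairs them, it has fewer arrangements and a higher limit.

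The differences repeated weakly. Across the 4370 probe sets, which are not independent, the first day's difference (18 minus 12 h) and the second day's (42 minus 36 h) correlated at r = 0.20, with the same sign in 57.2%. These pools came from different rats, but their arrays shared runs. The first run and the technical repeat, which read the same pools, gave differences that correlated at r = -0.06 on the first day, at 0.09 on the second and at 0.06 for the mean of both days. Arrays a and b of 36 h correlated at 0.87 over log2 intensities, whereas array b of 36 h and array b of 24 h, which are different pools, correlated at 0.94. The standard deviation of the first-day difference was 0.79 in the first run and 0.48 in the repeat, against a median SE of 0.22 and a median absolute pooled difference of 0.20.

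**Figure D1:**
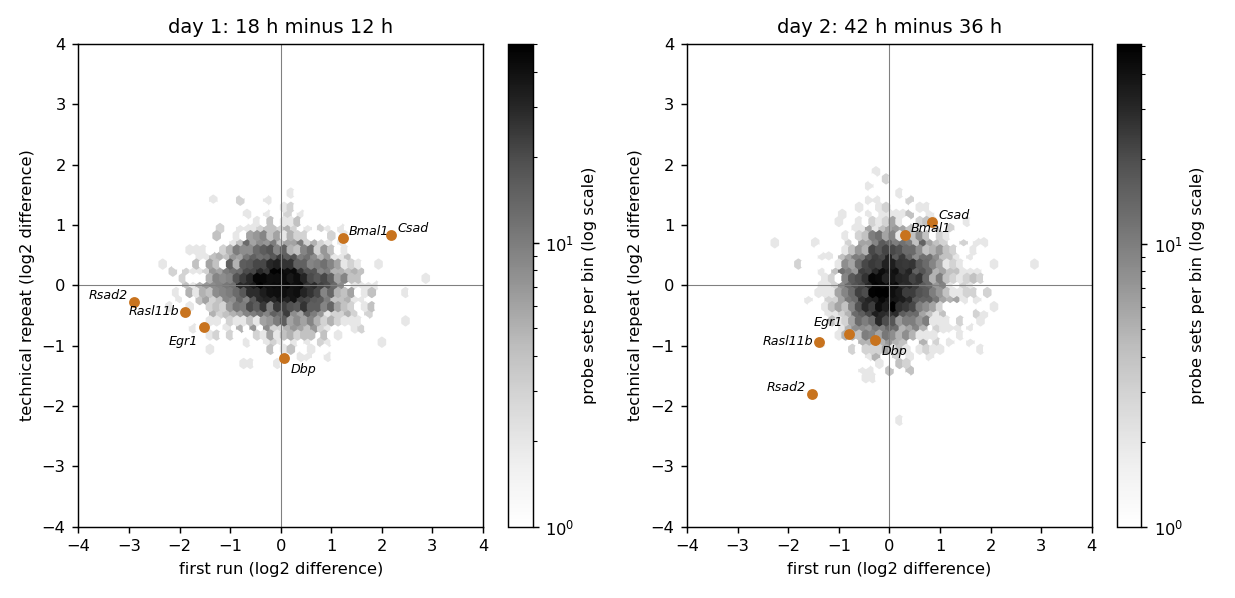
Log2 differences between CT 18 and CT 12 in the first run (horizontal) and in the technical repeat of the same pools (vertical), on each day; grey hexagons count the 4370 tested probe sets and orange points mark 6 named genes. The cloud has no clear slope on either day (r = -0.06 and 0.09). Rasl11b, Rsad2 and Egr1 lie in the lower left and Csad and Bmal1 in the upper right on both days.

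Among genes lower at CT 18, Rasl11b had the smallest p. It encodes a small GTPase related to Ras. At 12 h it read 1421 in the first run and 965 in the repeat, and at 36 h 916 and 1598 on arrays a and b and 993 in the repeat. At 18 h it read 385 and 712, and at 42 h 463 and 519. Every CT 12 array was thus above every CT 18 array. The 12 genes in each direction were picked by p among those whose pools did not overlap. Separation of their arrays is therefore favoured by the choice and is no further support. The pool values of 1171 and 1096 at CT 12 and 523 and 490.2 at CT 18 gave a 2.24-fold lower level at CT 18, a log2 difference of -1.16 ± 0.18 (SE; adjusted p = 0.199). Without the arrays of high controls the difference was -0.70 ± 0.21. A second probe set, too dim to test, was lower at CT 18 in both runs on both days.

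Rsad2 encodes viperin, an antiviral enzyme best known as a product of interferon signalling. Its pools read 4004 and 4107 at CT 12 and 1328 and 1296 at CT 18, a 3.09-fold lower level (log2 difference -1.63 ± 0.26, adjusted p = 0.199). The size differed between arrays. At 12 h the first run read 5947 and the repeat 2696 (2695.5), at 18 h they read 792 and 2227, and arrays a and b of 36 h read 2821 and 8218. The repeat difference on the first day was therefore -0.28, against -2.91 in the first run, although the CT 12 arrays all stayed above the CT 18 arrays. A second, dimmer probe set gave -0.88 ± 0.21, and without the arrays of high controls the brighter one gave -0.78 ± 0.30.

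Egr1 is an immediate early transcription factor that responds to synaptic input and, in the SCN, to light at night. Its brightest probe set read 9818 and 6590 (6589.8) at 12 h and 5267, 7289 and 6113 at 36 h. At 18 h it read 3427 and 4082, and at 42 h 3560 (3559.5) and 3509. The 5 CT 12 arrays were all above the 4 CT 18 arrays. The log2 difference was -0.95 ± 0.19 (adjusted p = 0.199) and stood at -0.69 ± 0.18 without the arrays of high controls. The probe sets of Egr1 disagreed. A second set at a mean intensity of 245 gave -0.66 ± 0.24, whereas another, at 142, gave 1.12 ± 0.22 in the opposite direction, higher in both runs on both days. Which of them reads Egr1 RNA best cannot be told from the intensities.

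Marcks encodes an actin-binding substrate of protein kinase C. Its arrays read 182 and 162 at 12 h, 176, 129 and 215 at 36 h, 92.0 and 89.2 at 18 h, and 89.4 and 125 at 42 h. The groups did not overlap, and the 4 differences were close together, from -0.99 to -0.75. The log2 difference was -0.85 ± 0.19 (adjusted p = 0.203). A brighter Marcks probe set gave -0.19 ± 0.19.

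Of the other 8 genes among the 12 of smallest p, log2 differences ran from -1.16 (Kcnd3) to -0.77 (Dpysl2). Sec31a, a subunit of the coat that buds vesicles from the endoplasmic reticulum, differed by -1.06 ± 0.26 and by -0.43 without the arrays of high controls, and arrays a and b of 36 h read 2127 and 19295 for it. Rtn1, a reticulon of the neuronal endoplasmic reticulum, read 20606 and 21799.9 in the CT 12 pools and 12203 and 12511 at CT 18, while the repeat gave 0.04 on the first day. Il2rb, a cytokine receptor subunit, and Dpysl2, which binds tubulin in growing axons, were lower in both runs on both days, as was Ptpn3, a tyrosine phosphatase, at -1.01 ± 0.22. Without the arrays of high controls Ptpn3 stood at -0.36 ± 0.23, Rtn1 at -0.26 ± 0.22, Kcnd3 at -0.64 ± 0.30, Il2rb at -0.53 ± 0.20 and Dpysl2 at -0.47 ± 0.25. Kcnd3, a channel of the fast A-type potassium current, had a brighter probe set at 0.07 ± 0.25. Fam210a, Syt8 and Rtn1 each had 1 difference above 0. For the other 9 of the 12 genes all 4 were negative, beside 105 of 203 probe sets lower at an unadjusted p under 0.05. Of 6 other tested probe sets that 5 of the 12 genes had, 3 went the same way. Of these 6, 1 went the opposite way at an unadjusted p under 0.05.

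**Figure D2:**
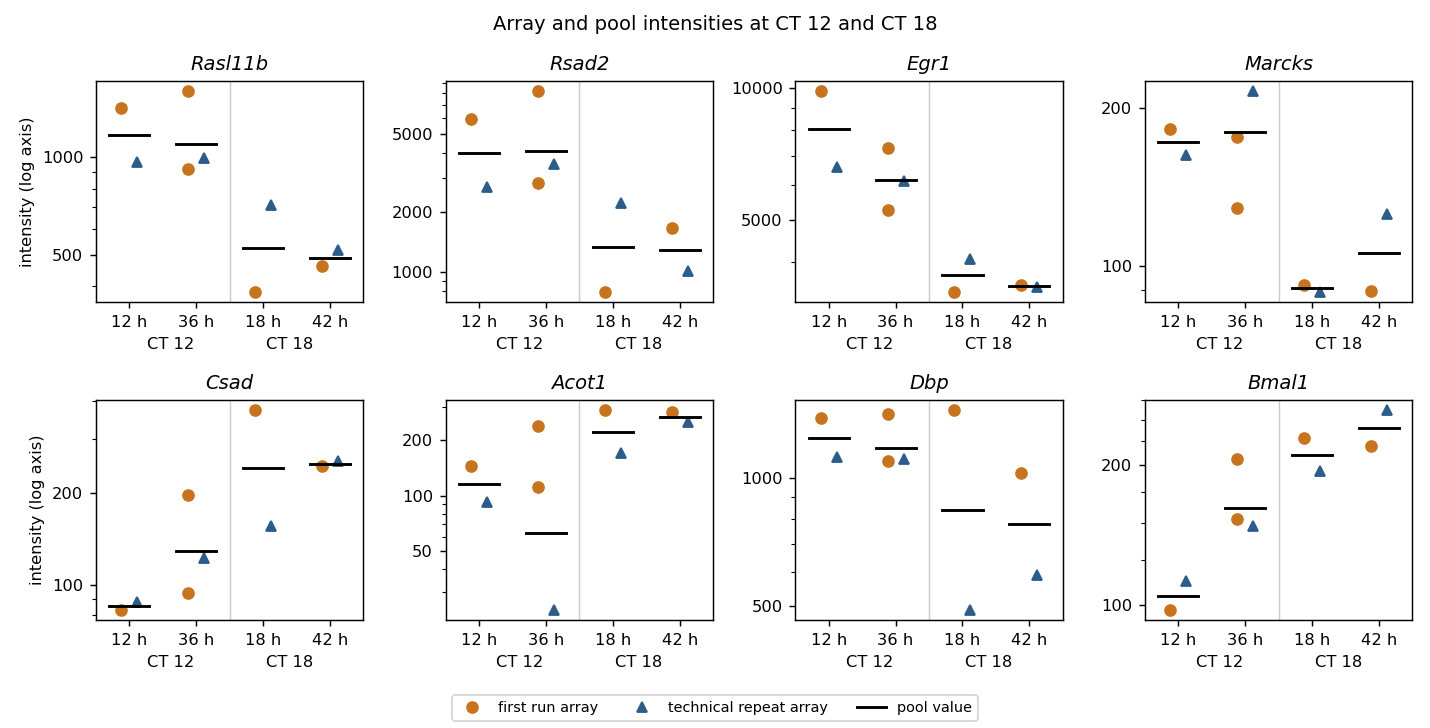
Intensity (log axis) of 8 genes on each array of the 2 CT 12 pools (12 and 36 h) and the 2 CT 18 pools (18 and 42 h); circles are first-run arrays, triangles are technical repeat arrays and bars are pool values. CT 12 and CT 18 arrays do not overlap for Rasl11b, Rsad2, Egr1 and Marcks, which were picked by p among genes whose pools did not overlap. A first-run Dbp array of 18 h (1448) lies above the CT 12 arrays.

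Among genes higher at CT 18, all 4 differences had 1 sign in 6 of the 12 with the smallest p. The share was 120 of 239 over all probe sets higher at an unadjusted p under 0.05. Cdk5, a kinase of neurons, read 120 and 80.7 in the CT 12 pools and 293 and 287 at CT 18, a 2.94-fold higher level (log2 difference 1.56 ± 0.26, adjusted p = 0.199). Its first-day difference was 2.86 in the first run and -0.29 in the repeat, and arrays a and b of 36 h read 257 and 31.5. Without the arrays of high controls the difference was 0.39 ± 0.34.

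Csad, which makes hypotaurine on the way to taurine, was higher in both runs on both days. It read 82.6 and 87.9 at 12 h, 197, 94.2 and 123 at 36 h, 376 and 156 at 18 h, and 246 and 254 at 42 h. Only array a of 36 h (197) exceeded a CT 18 array, the repeat of 18 h. The log2 difference was 1.23 ± 0.21 (adjusted p = 0.199), and 0.76 ± 0.25 without the arrays of high controls. A brighter Csad probe set gave -0.08 ± 0.18.

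Acot1, an acyl-CoA thioesterase of fatty acid metabolism, read 145 and 92.9 at 12 h, 238, 111 and 24.0 at 36 h, 291 and 169 at 18 h and 281 and 249 at 42 h. Its log2 difference was 1.51 ± 0.29 (adjusted p = 0.199). The repeat of the second day gave 3.38, where the 36 h array read 24.0, and the other 3 differences ran from 0.79 to 1.00. Canx encodes calnexin, a chaperone of the endoplasmic reticulum. It read 478 and 855 in the CT 12 pools against 1303 and 1473, with a log2 difference of 1.12 ± 0.21 that was 1.28 ± 0.23 without the arrays of high controls. The 3 other tested Canx probe sets gave 0.45, 0.38 and -0.10.

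The other genes of the 12 highest were Renbp (an epimerase of amino sugars), Skic8 (a subunit of the RNA-degrading SKI complex), Ssb (the RNA-binding La protein), Cavin3 (a coat protein of caveolae), Atp5po (a subunit of ATP synthase), Csdc2 (an RNA-binding protein), Pmch (the precursor of melanin-concentrating hormone) and the dim Egr1 probe set above. The difference of Renbp was 1.32 ± 0.22, but 0.21 ± 0.32 in the first run alone and 2.44 ± 0.25 in the repeat alone. Renbp read 37.4 at 12 h and 32.6 at 36 h in the repeat. In the first run it read 225 at 12 h, and 163 and 351 on arrays a and b of 36 h. Without the arrays of high controls, the differences of Skic8 and Atp5po, 1.22 and 0.95, became -0.07 and 0.08. That of Csdc2 went from 0.95 to 0.48. Of 11 other tested probe sets that 6 of these genes had, 4 went the same way, 1 of them at an unadjusted p under 0.05, and 2 went the opposite way at that threshold.

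**Figure D3:**
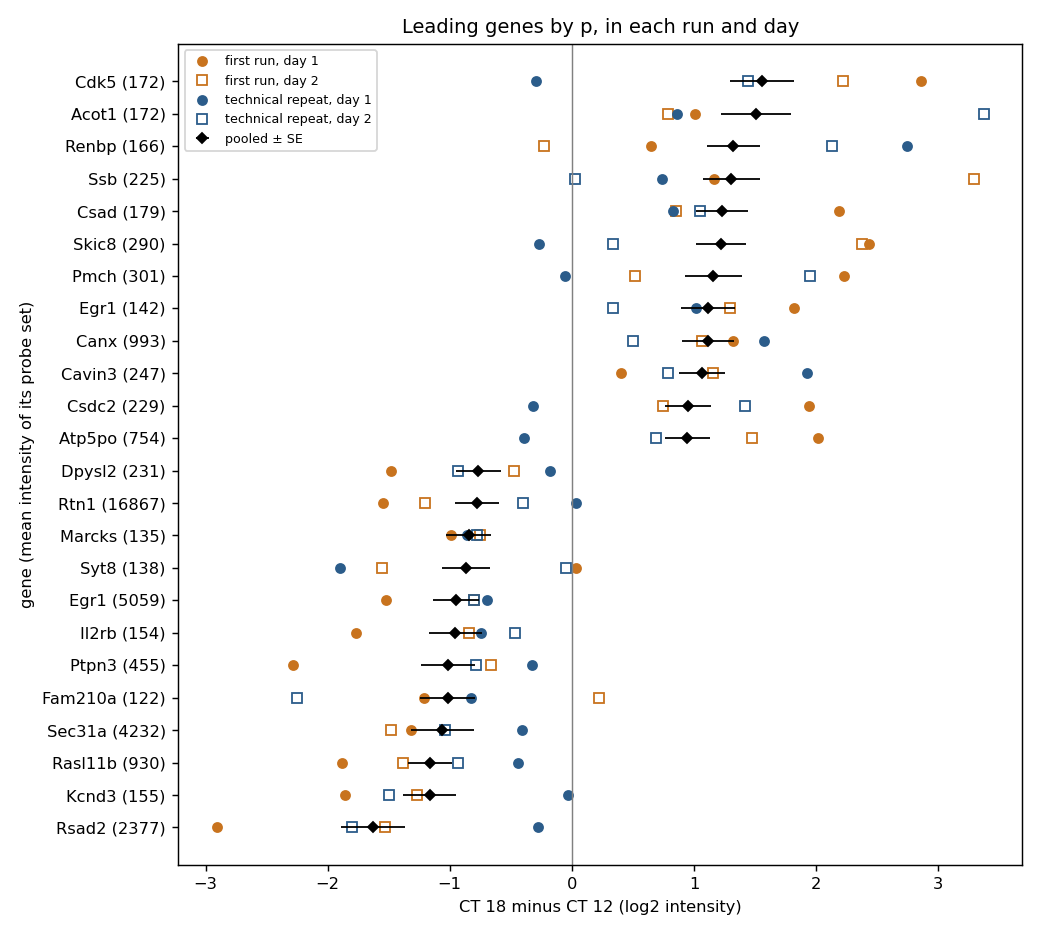
Log2 difference between CT 18 and CT 12 for the 12 genes with the smallest p in each direction, with the mean intensity of the probe set in brackets; black diamonds with bars are the pooled value ± SE, circles the first day, squares the second, orange the first run and blue the technical repeat. Egr1 appears on both sides through 2 probe sets. Blue circles lie nearer 0 than orange ones for Rsad2 and Kcnd3 and cross it for Cdk5, Skic8, Atp5po, Csdc2, Pmch and Rtn1.

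Past a log2 size of 0.5 in both runs on both days there were 19 probe sets (0.435%), 11 higher (0.252%) and 8 lower (0.183%). Those with 1 gene symbol that were higher were Csad, Acot1, Canx, Gsta1, Eif4h, Rad18, Zfp36, Hspb1, Grb14 and Adcy5. The lower ones were Egr1, Marcks, Prps1, Scd2 and Pfkm. Zfp36, which speeds the decay of cytokine mRNAs, stood at 0.98, 0.97, 0.91 and 1.07 in the 4 differences. Its pools read 127 and 149 at CT 12 and 250 (249.6) and 297 at CT 18. Prps1, a synthetase of nucleotide precursors, stood at -0.81, -0.63, -0.58 and -0.62.

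The core clock list holds the genes of the loop and its direct outputs. The array held 12 of its 24 genes and 10 were tested. In 8 of the 10 the difference was negative, with a median of -0.15, against a median of -0.000266 over the 2820 genes tested. Bmal1 was higher and Dbp and Bhlhe41 were lower at an unadjusted p under 0.05.

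Dbp, a transcription factor of the PAR bZIP family that CLOCK and BMAL1 drive, read 1381 and 1119 at 12 h and 1099, 1415 and 1107 at 36 h. At 18 h the first run read 1448 and the repeat 488, and at 42 h they read 1027 and 591. Only the repeat arrays were clearly low at CT 18. The pooled log2 difference was -0.58 ± 0.19 (adjusted p = 0.385), -1.05 in the repeat alone and -0.11 in the first run alone. Both first-run arrays of 12 h and 18 h had high controls, and without them and array b of 36 h the difference was -0.85 ± 0.22. A second Dbp probe set gave -0.67 ± 0.22. Over the whole course Dbp pools read 479 and 516 at CT 0, 828 and 899 at CT 6, 1243 and 1175 at CT 12 and 841 and 779 at CT 18.

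Bmal1, the partner of CLOCK, ran the other way. It read 97.2 and 112 at 12 h, 152, 206 and 147 at 36 h, 228 and 193 at 18 h, and 219 and 263 at 42 h. Array b of 36 h was the only CT 12 array above a CT 18 array. The log2 difference was 0.79 ± 0.27 (adjusted p = 0.414), positive in both runs on both days, and 0.73 ± 0.26 without the arrays of high controls.

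Bhlhe41 (also known as Dec2) and Bhlhe40 (Dec1) are repressors that bind E-boxes. Bhlhe41 pools read 5421 and 4992 at CT 12 and 2652 and 4327 at CT 18, for a log2 difference of -0.62 ± 0.24 (adjusted p = 0.453). The first-run array of 18 h was the low one, at 1624 against 3998 to 4682 on the other CT 18 arrays, and without the arrays of high controls the difference was 0.05 ± 0.22. Bhlhe40 differed by -0.25 ± 0.23.

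Nr1d1 pools read 280.3 and 316 at CT 12 and 204 and 222 at CT 18, which did not overlap, but its difference of -0.49 ± 0.37 did not pass. Its second probe set gave -0.56 ± 0.28. Per2, a repressor of CLOCK and BMAL1, read 323 and 271 against 150.0 and 317, so that its day differences were -1.11 and 0.23. Nr1d2 (-0.05 ± 0.22), Tef (-0.00 ± 0.22), Hlf (0.05 ± 0.31) and the kinase gene Csnk1d (-0.03 ± 0.21) did not differ from 0 by more than 1 SE, which does not show that they were constant. The 2 runs were opposite for Hlf, at -0.85 ± 0.34 in the first run alone and 0.95 ± 0.39 in the repeat alone. Rorb and Timeless lay near the floor of 12.1 and were not tested.

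**Figure D4:**
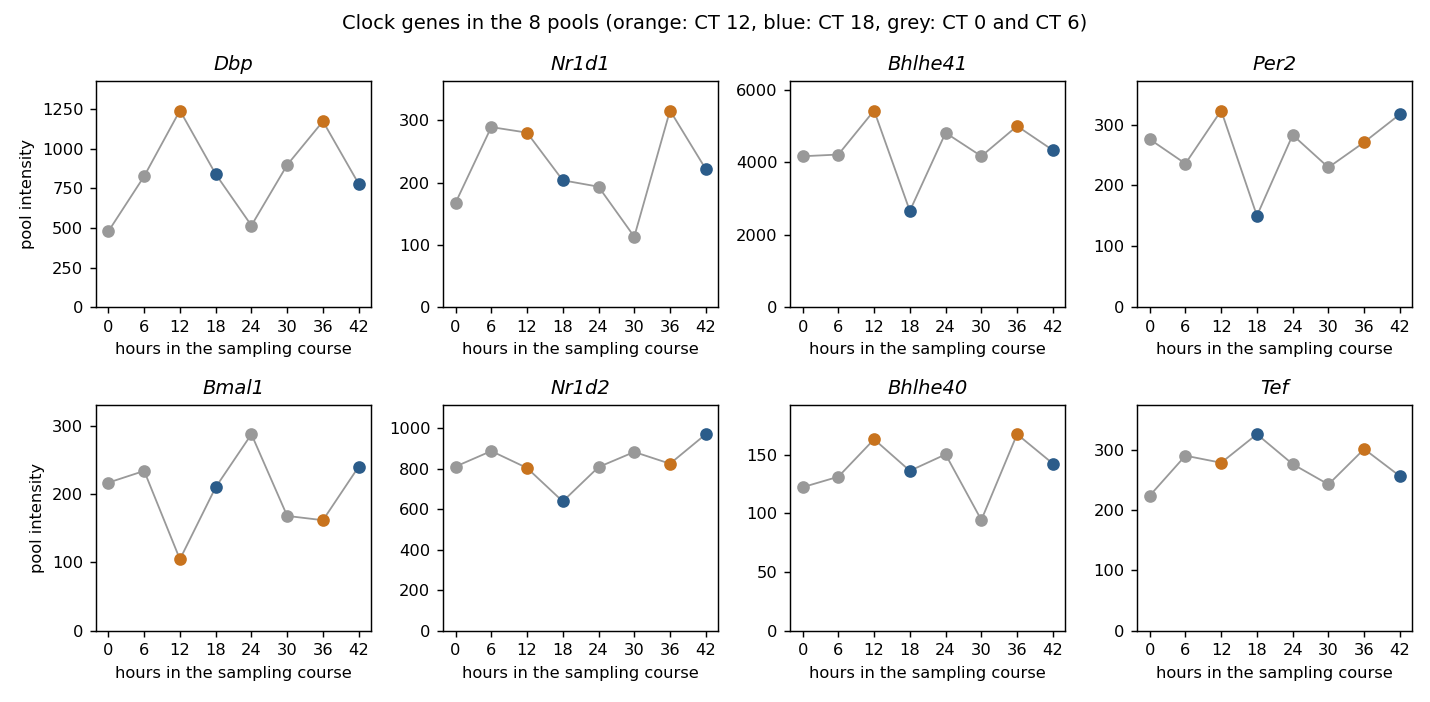
Pool intensity of 8 clock genes at the 8 time points, in hours from CT 0 of the first sampled day; orange points are CT 12, blue points CT 18 and grey points CT 0 and CT 6, 1 pool per point. Dbp is high at both CT 12 pools and lower 6 h later on both days, and Bmal1 has its lowest pools at 12 h and 36 h. Per2 and Bhlhe41 are low at 18 h but not at 42 h.

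Some promoters of the clock genes from RefSeq (build GRCr8) hold elements through which the loop is known to run, and others hold none of those searched. The promoters cover 300 bases around an annotated start, and positions count bases upstream of it as negative. Of the 12 clock genes, 10 matched, with 11 windows since Nr1d1 has 2 starts. The E-box CACGTG, searched on both strands, is in 6.42% of 33469 promoters and in 4 of the 11 windows. TAGGTCA, a site type of REV-ERB and ROR receptors, is in 2.63%, and TTATGTAA, a site type of the PAR bZIP factors, in 0.893%. Each of them is in 1 of the 11 windows. A match describes letters only. The 4 sequences below are those of Bmal1, Nr1d1, Bhlhe41 and Per2, shown because together they hold the 3 kinds of element. Capitals mark TAGGTCA in Bmal1 (position -16), CACGTG in Nr1d1 (-191) and in Bhlhe41 (-48), and TTATGTAA in Per2 (-192). They lie at chr1:176766078-176766377 (plus strand), chr10:84229405-84229704 (minus), chr4:180569306-180569605 (minus) and chr9:99496944-99497243 (minus).
Bmal1 promoter: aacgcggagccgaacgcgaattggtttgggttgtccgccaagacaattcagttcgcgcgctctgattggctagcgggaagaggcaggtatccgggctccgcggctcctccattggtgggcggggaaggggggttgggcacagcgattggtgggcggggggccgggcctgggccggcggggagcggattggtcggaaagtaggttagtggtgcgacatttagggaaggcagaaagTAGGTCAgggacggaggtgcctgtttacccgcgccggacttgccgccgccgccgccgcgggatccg
Nr1d1 promoter: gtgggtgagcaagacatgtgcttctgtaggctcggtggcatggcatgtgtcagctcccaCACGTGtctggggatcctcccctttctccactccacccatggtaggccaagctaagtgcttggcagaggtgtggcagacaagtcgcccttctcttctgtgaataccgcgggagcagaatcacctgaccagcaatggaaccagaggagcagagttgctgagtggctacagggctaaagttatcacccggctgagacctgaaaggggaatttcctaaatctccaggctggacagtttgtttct
Bhlhe41 promoter: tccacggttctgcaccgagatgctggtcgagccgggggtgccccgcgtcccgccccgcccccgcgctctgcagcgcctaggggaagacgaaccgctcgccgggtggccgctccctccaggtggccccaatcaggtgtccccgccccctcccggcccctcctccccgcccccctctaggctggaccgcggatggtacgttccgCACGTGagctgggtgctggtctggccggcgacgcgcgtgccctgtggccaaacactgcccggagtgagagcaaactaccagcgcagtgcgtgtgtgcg
Per2 promoter: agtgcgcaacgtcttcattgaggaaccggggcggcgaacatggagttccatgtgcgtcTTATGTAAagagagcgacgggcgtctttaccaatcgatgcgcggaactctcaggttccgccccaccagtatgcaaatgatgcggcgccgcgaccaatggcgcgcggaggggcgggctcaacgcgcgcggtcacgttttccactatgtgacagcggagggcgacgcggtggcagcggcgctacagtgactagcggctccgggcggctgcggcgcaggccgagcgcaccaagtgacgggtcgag

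Of the 4 clock promoters with CACGTG, those of Bhlhe41, Nr1d1, Bhlhe40 and Tef, RNA differences between CT 18 and CT 12 ran from -0.62 to -0.00. Tested clock genes matched to a promoter but without CACGTG stood at -0.58 (Dbp), -0.44 (Per2), -0.05 (Nr1d2) and 0.79 (Bmal1). The Dbp window held none of the 5 motifs searched, which were these 3, TTACGTAA (0.120% of promoters) and TGACGTCA (1.83%). Among the 12 highest genes, 9 matched a promoter: Canx held CACGTG, Renbp and Atp5po held TAGGTCA and Skic8 held TGACGTCA. Of 10 matched among the lowest, none held any of the 5.

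The lists that follow are to be read beside all 2820 genes tested, of which 1413 had a negative difference, 129 were higher and 130 lower at an unadjusted p under 0.05. Immediate early genes mark recent neuronal activity, and 11 of 20 on the array were tested. At an unadjusted p under 0.05, 2 were lower and 0 higher, and 7 of 11 differences were negative (median -0.17), beside 1413 of 2820. Besides Egr1, these were Nr4a3, an orphan nuclear receptor, at -0.83 ± 0.27. Its pools read 204 and 185.5 at CT 12 and 143 and 83.5 at CT 18, but the repeat of 42 h read 237 and the repeat alone gave 0.07. Fos (-0.17 ± 0.24), Arc (0.01 ± 0.18), Jun (0.34 ± 0.31) and Nr4a1 (-0.22 ± 0.21) did not pass that threshold.

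Of 12 SCN neuropeptide genes tested, 0 had an unadjusted p under 0.05, and 8 of 12 were lower (median -0.11). Penk, the precursor of enkephalins, came nearest, with pools of 1431 and 1669 at CT 12 and 1118 and 1218 at CT 18 (-0.41 ± 0.19, and -0.18 ± 0.24 without the arrays of high controls). All 4 of its differences were negative. Avp stood at -0.09 ± 0.21, with first-run arrays of 2082 to 4217 and repeat arrays of 1039 to 1365 in both phases. Receptors for SCN input and coupling were mostly dim, with 4 of 19 tested, and none of the 4 passed. Vipr2 and Adcyap1r1, the receptors for VIP and PACAP, were among those too dim.

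Of 14 GABA genes tested, 12 had a negative difference (median -0.27), beside 1413 of 2820 genes. At an unadjusted p under 0.05, 2 were lower and 0 higher, beside 130 and 129 of 2820. Gad1 read 9224 and 12305 at 12 h, 9293, 20874.5 and 15526 at 36 h, 5020.4 and 12596 at 18 h, and 7541.5 and 10823 at 42 h. The first-run CT 18 arrays were below every CT 12 array and the repeat arrays were not. The log2 difference was -0.56 ± 0.21 (adjusted p = 0.443), and -0.19 ± 0.20 without the arrays of high controls. Gabra2, a GABA-A receptor subunit, differed by -0.59 ± 0.22, and by -0.72 ± 0.19 without those arrays. It stood at -0.31 ± 0.32 in the first run alone, with 0.11 on the first day, and at -0.86 ± 0.27 in the repeat alone. Its mean intensity of 129 was close to the filter of 121. Slc32a1, the vesicular GABA transporter, stood at -0.45 ± 0.22 with all arrays and 0.13 ± 0.20 without the arrays of high controls. Gad2, the other GABA-making enzyme, stood at -0.06 ± 0.32.

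Of 17 potassium channel genes tested, 2 were higher at an unadjusted p under 0.05 and 0 lower, beside 129 and 130 of 2820 genes. Kcna1, a delayed rectifier, read 431 and 226 at 12 h, 390.1, 223.5 and 158 at 36 h, 769 and 299 at 18 h, and 561 and 317 at 42 h. Within each run and day CT 18 was higher (log2 difference 0.79 ± 0.20, adjusted p = 0.234), and it was 0.58 ± 0.22 without the arrays of high controls. A second Kcna1 probe set gave 0.99 ± 0.24. Kcnj16, an inward rectifier, differed by 0.84 ± 0.22, with -0.60 in the repeat of the first day and 0.29 ± 0.38 without the arrays of high controls. Of 13 calcium, sodium and HCN channel genes, 10 were lower (median -0.20). Only Nalcn, the sodium leak channel, passed, at -0.53 ± 0.22 and at -0.79 ± 0.20 without those arrays. Leaving them out removes both first-run arrays of the first day, where the first run gave 0.17. Nalcn stood at -0.12 ± 0.30 in the first run alone and at -0.95 ± 0.24 in the repeat alone. Its pools read 2741 and 3669.7 at CT 12 and 2162 and 2217 at CT 18.

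Signalling and release genes showed few differences. Of 25 genes of cAMP, calcium and MAP kinase signalling, Map2k1 (MEK1) was lower at -0.59 ± 0.22 and Mapk9 (JNK2) higher at 0.67 ± 0.26. In the first run alone Map2k1 stood at -0.44 ± 0.38 and Mapk9 at 0.06 ± 0.31. In the repeat alone they stood at -0.73 ± 0.20 and 1.28 ± 0.33. Adcy5, an adenylyl cyclase, was 2.42-fold higher at CT 18 with all 4 differences positive, but its SE was 0.59, and it did not pass that threshold. Its pools at CT 0 and CT 6 ranged from 53.5 to 211. Of 16 genes of synaptic vesicle release, Sv2a was higher at 0.61 ± 0.19 and Dnm1, the dynamin of synapses, lower at -0.44 ± 0.19. Of 10 glutamate receptor genes, Grin2c was lower at -0.49 ± 0.20. Without the arrays of high controls Sv2a stood at 0.34 ± 0.22, Dnm1 at -0.19 ± 0.21 and Grin2c at -0.28 ± 0.21, none of which passed.

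Among energy genes, 19 of glycolysis and pyruvate control were tested, each by its brightest probe set. Of these only Pfkfb1, which makes the activator of phosphofructokinase, passed, lower at -0.57 ± 0.18 (pools 539 and 450.1 against 345 and 321.5). The Pfkm probe set named above, at -0.96 ± 0.34, also passed but is not in that count. Of 26 genes of oxidative phosphorylation, 2 were lower and 0 higher at that threshold, beside 130 and 129 of 2820. Ndufb5, of complex I, read 4335 and 5905 at CT 12 and 3259.7 and 3737 at CT 18 (-0.54 ± 0.18) and stood at -0.56 ± 0.17 without the arrays of high controls. Cox5a, of cytochrome oxidase, differed by -0.59 ± 0.21, and by -0.27 ± 0.18 without those arrays. In 6 of the 26 all 4 differences were negative, against 209 of the 2820 genes. Of 16 lipid synthesis genes, Scd2, a fatty acid desaturase, was lower at -0.46 ± 0.19, with all 4 differences negative.

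Protein synthesis and folding genes went both ways. Of 36 ribosomal protein genes, the same threshold left 2 higher and 3 lower (median 0.13). Rpl14 was higher at 0.83 ± 0.25, while Rpl30 was lower at -2.10 ± 0.51, from 282 and 367 to 138 and 40.5. They stood at 0.25 ± 0.31 and -1.43 ± 0.76 without the arrays of high controls. Pseudogenes of ribosomal proteins make such probe sets uncertain. Of 21 heat shock and folding genes, 4 were higher (Serpinh1, Dnaja2, Fkbp4 and Ppib) and 1 lower (Hspe1), beside 129 and 130 of 2820. The Hspb1 probe set named above, at 0.99 ± 0.23, is not counted among the 4. The median of the 21 was 0.22, but -0.15 in the first run alone and 0.24 in the repeat alone. Dnaja2, a co-chaperone of HSP70, read 1886 and 2415 against 2875 and 3398 (0.55 ± 0.19), and 0.79 ± 0.23 without the arrays of high controls. Serpinh1, the collagen chaperone HSP47, differed by 0.90 ± 0.24, and by 0.43 ± 0.26 without those arrays. Of 27 proteasome and ubiquitin genes, Psmc1 was higher at 0.66 ± 0.21, and stood at 0.26 ± 0.22 without them.

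Of 22 antioxidant and redox enzymes tested, 5 were higher and 1 lower at an unadjusted p under 0.05, beside 129 and 130 of all 2820 genes tested. Gsta1, a glutathione transferase, read 644 and 916 at 12 h, 1210 (1209.5), 352.5 and 730.0 at 36 h, 1181 and 1417 at 18 h, and 1817 and 1272 at 42 h. Array a of 36 h was the only CT 12 array above a CT 18 array. The log2 difference was 0.95 ± 0.19 (adjusted p = 0.203), and 2 further Gsta1 probe sets gave 0.50 and 0.55. All 3 are of a type that can cross-hybridise within the gene family. Cat, catalase, differed by 0.94 ± 0.24, but it stood at -0.06 in the first run alone and at 1.95 in the repeat, and arrays a and b of 36 h read 278 and 3298. Txnrd2, the mitochondrial thioredoxin reductase, was higher in all 4 differences (0.73 ± 0.20). Gpx1 (0.47 ± 0.19) and Gstp1 (0.45 ± 0.20) were also higher, and Hmox1, heme oxygenase, was lower at -0.69 ± 0.19. Klf9, a target of glucocorticoid and thyroid hormone, was lower at -0.52 ± 0.19 and the only one of 10 genes in its list to pass. It stood at -0.33 ± 0.18 without the arrays of high controls.

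**Figure D5:**
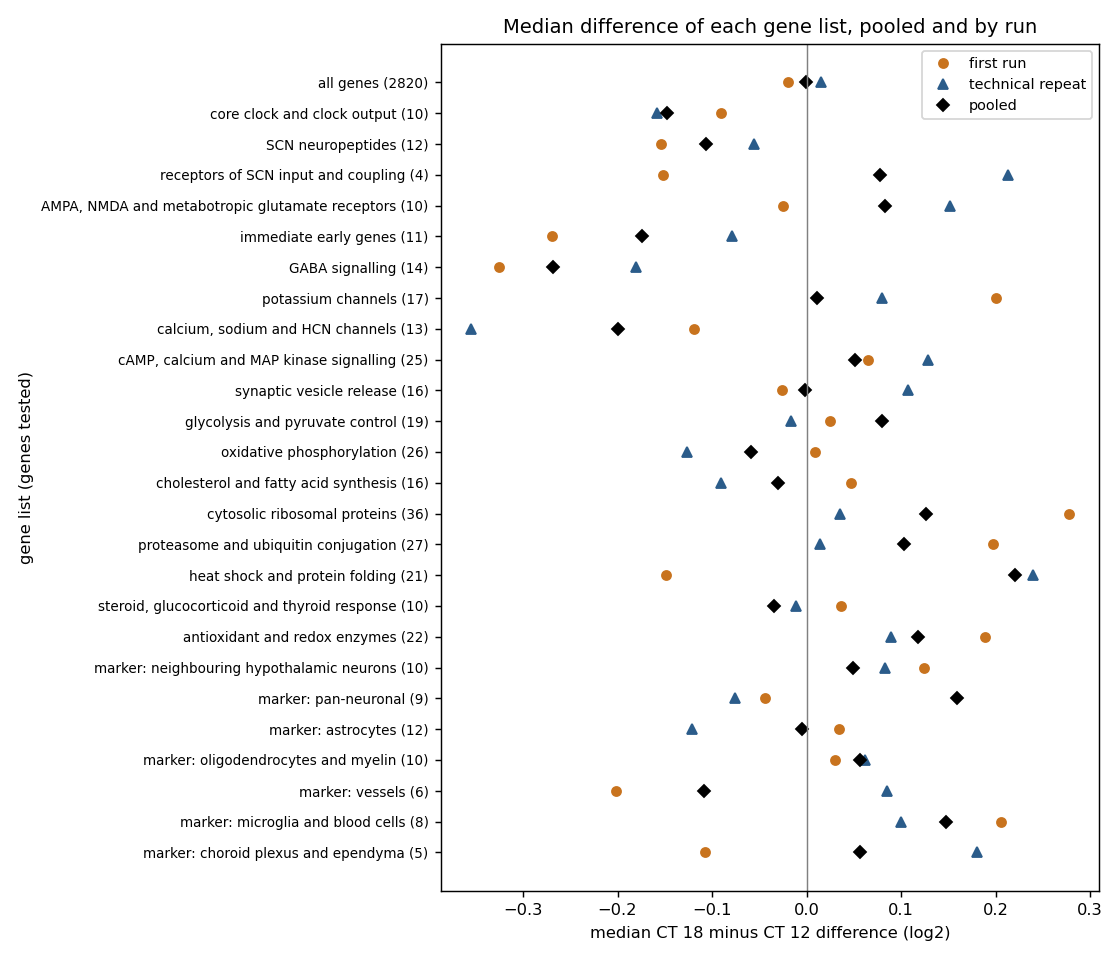
Median log2 difference between CT 18 and CT 12 for each gene list, with the number of genes tested; black diamonds are pooled values, orange circles the first run alone and blue triangles the repeat alone. The lists lie between -0.27 (GABA signalling) and 0.22 (heat shock and protein folding), and for many lists, heat shock genes among them, the first run and the repeat fall on opposite sides of 0.

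Tissue beside the SCN can differ between dissections, so markers of other cells were set beside these results. In bulk RNA, fewer cells of a type and less RNA per cell cannot be told apart. Summed intensities of 12 markers of neighbouring hypothalamic neurons, of which 10 passed the level filter, were 8392 and 7456 at CT 12 and 9948 and 8384 at CT 18. Of the 10, Pmch alone passed, at 1.16 ± 0.23, and was 0.54 ± 0.31 without the arrays of high controls, and Hcrt, from the same lateral area, stood at 0.04 ± 0.20. Sums of 13 astrocyte markers were 104374 and 89740 (89739.5) against 100872 and 84847, with Clu (clusterin) higher at 0.49 but at -0.24 in the repeat alone and -0.18 without the arrays of high controls. Sums of 10 myelin markers were 41489 and 37269 against 39347 and 39535. Sums of 12 markers of microglia and blood were 9651 and 9902 against 12605 and 10132. The blood marker Hbb made up much of them, with pools of 4871 and 4810 against 7396 and 5026. At 18 h Hbb read 14302.5 in the first run and 3824.5 in the repeat. Its difference was 0.33 ± 0.28, and -0.13 ± 0.35 without the arrays of high controls. The blood marker Alas2 stood at -0.23 ± 0.20, and C1qb was higher at 0.68 ± 0.26. C1qb stood at 0.12 ± 0.42 without the arrays of high controls, and at -0.91 in the repeat of the first day. Sums of 10 pan-neuronal markers were 26215 and 28967 against 28977 and 28112, and those of 8 markers of choroid plexus and ependyma 3800 and 4855 against 4374 and 4611. The 12 vessel markers summed to 9511 and 9443 against 8608 and 8730. Of the 6 tested, 3 were lower and 3 higher. Flt1 (-0.55 ± 0.21) and Acta2 (-0.52 ± 0.21) were lower at an unadjusted p under 0.05, whereas Kdr stood at 0.46 ± 0.32. Flt1 and Acta2 were dim beside the sums, at mean intensities of 248 and 313. Without the arrays of high controls Flt1 stood at -0.20 ± 0.28 and Acta2 at -0.25 ± 0.26. Among the marker lists, only the sums of vessels and of microglia and blood did not overlap between CT 12 and CT 18. For comparison, pools did not overlap for 40.3% of all probe sets tested. The part of the markers in the results above was not tested.

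Whether this step differed from the 6 h step of the early subjective day (CT 0 to CT 6) was tested in the same fit, and 0 of 4370 probe sets passed an adjusted p of 0.05 (lowest 0.176). At an unadjusted p under 0.05 there were 286 (6.54%), with the night step higher in 167 (3.82%) and lower in 119 (2.72%). Rasl11b had the smallest p. Its pools read 897 and 851 at CT 0, 1463 and 1526 at CT 6, 1171 and 1096 at CT 12 and 523 and 490.2 at CT 18, so it was higher at the end of the day step and lower at the end of the night step. The night step minus the day step was -1.94 ± 0.26 (adjusted p = 0.176). Kcnd3 (-2.08 ± 0.31) came next, and Dbp stood at -1.37 ± 0.26 (adjusted p = 0.311). Ubac2, an endoplasmic reticulum protein, had the next smallest p, at 2.37 ± 0.36, with pools of 323 and 171 at CT 0, 126 and 80.7 at CT 6, 135 and 127 at CT 12 and 295 and 289 at CT 18.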

How the data were processed

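The authors deposited 1 table of probe set intensities for the 18 arrays. How probes were summarised and scaled is not given in the sources used here. These deposited intensities are on a linear scale, and their mean after trimming 2% at each end was 500.7 to 500.8 on every array, so they were kept as scaled.

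Values below the 10th percentile (12.1) were set to it and transformed to log2. Arrays a and b were averaged, then both runs. Of 8740 probe sets that were no controls, 4370 with a mean over the 8 pools above the median (121) were tested; 0 columns of other samples were in the table. Phase means and a day term were fitted to all 8 pools with limma 3.58.1 in R 4.3.3 (3 residual and 5.61 prior degrees of freedom), with Benjamini-Hochberg adjustment and a threshold of 0.05. The fit was tested on simulated data.

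Symbols came from the platform annotation: 7006 probe sets had 1, 308 several and 1426 none. RefSeq held the gene number of 6985 of them and changed 0 symbols. Each of 25 gene lists, 7 of them markers, was read through the brightest probe set of a gene. Members and lists were chosen with earlier results of these data known. Genes named were the measured clock genes, the 12 higher and 12 lower by p whose pools did not overlap, and up to 3 per list by p; other members of a list that passed, and the genes past 0.5 in every difference, were named after their values were seen.

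The day numbers did not pair the pools in the data: deviations of same-day pools correlated between -0.13 and 0.10 over the 6 pairs of phases. The number of pools, 2 per phase, limits the precision. The alternatives tried were other normalizations, filters, floors and variance models, no day term, fewer pools, a cosine fit, each run, arrays a or b left out, single arrays, each pool left out and, chosen after the data were seen, the 3 arrays of high controls left out.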

Additional observations from a re-analysis of the deposited data

Results flagged for a closer look

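Over the named probe sets, 208 groups of 4 or 5 arrays were examined and in 7 of them a single array stood far from the others; chance flags about 1 in 20 groups. At CT 12, Rpl30 read 199 in the repeat of 12 h against 357 to 398 on the other arrays, and Txnrd2 read 79.4 on array a of 36 h against 158 to 189. At CT 18, the first-run array of 18 h was the low one for Bhlhe41 (1624), Map2k1 (1723 against 4334 to 4511) and Rpl17 (52.3 against 188 to 220). The repeat of 42 h was high for Marcks (125 against 89.2 to 92.0), and the first-run array of 42 h was high for Klf9 (2989 against 1774 to 1928).

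For 3 genes both runs moved one way on the first day and the opposite way on the second, and this difference between days was not tested. The first and second day differences were -0.33 and 0.23 for Nr1d2, 0.23 and -0.23 for Tef, and 0.075 and -0.95 for Grin2d.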

How the results depend on the processing

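The count of 0 at an adjusted p under 0.05 held under each alternative but 2. With the level filter at the 75th percentile 2 probe sets were called (Rasl11b and Rsad2, adjusted p = 0.0259 each), and with single arrays 5 were called, where arrays of a pool entered with an estimated correlation of -0.13. The number at an unadjusted p under 0.05, 442, was 752 with no filter, 279 with the filter at the 75th percentile, which tests fewer probe sets, 264 with a cosine fit, 283 without the 3 arrays of high controls and 282 without these and arrays b. It ran from 329 to 481 with a pool left out, and 0 to 0 were called. For the step difference, 1 was called (Rasl11b) with the filter at the 75th percentile, a pseudocount of 50, limma's trend and robust options or single arrays. Its unadjusted number, 286, was 560 with no filter, 154 with that filter, 144 without the 0 h pool, and 144 to 350 over the pools left out.

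The paired fit with the day as a replicate block is the one reported; with no replicate block 0 were called and 453 passed unadjusted, against 305 for the step difference. Limited to the 4 pools, the replicate block gave 406 and no replicate block 350.

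Of 103 named probe sets, 95 kept their direction in the first run alone, 94 in the repeat alone and 93 without the arrays of high controls. Those at an unadjusted p under 0.05 whose sign turned were Skic8 (-0.067) and Bhlhe41 (0.046) without the arrays of high controls, with or without arrays b, Clu (-0.24 in the repeat, -0.18 without those arrays), Nr4a3 (0.070 in the repeat), Flt1 (0.10 in the repeat) and Cat (-0.060 in the first run). The cause was not tested.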
